A study of Mus musculus with 6 samples.

Results

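The genes described here are those of the volume-regulated anion channel and of the cell's organic osmolytes, in mouse leukaemia cells labelled SLC6A6 KO and SLC6A6 WT. SLC6A6 is the taurine transporter of the plasma membrane. The genes number 10 out of 53819 in the count table, chosen by symbol: the 5 channel subunit genes Lrrc8a, Lrrc8b, Lrrc8c, Lrrc8d and Lrrc8e, the transcription factor gene Nfat5, the osmolyte and stress genes Slc5a3, Akr1b3 and Hspa4l, and the kinase gene Wnk1. All 10 had a row, and all 10 were among the 15232 genes tested after a filter on low counts. Lrrc8e is at the edge of that filter, with 0 to 19 counts in a library.

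The sequenced RNA came from leukaemia cells that were sorted out of spleens, after mice had been given primary leukaemia driven by BCR-ABL together with NUP98-HOXA9, a pair of fusion oncogenes that together give a mouse model of chronic myeloid leukaemia in blast crisis (bcCML). There were 3 libraries with the genotype label SLC6A6 KO and 3 with the label SLC6A6 WT, and both groups carry the 2 fusion genes. The study's title says knock-down where the labels say KO, and the allele, the age of the mice, the sorting marker and the number of primary leukaemias are not stated in the labels. Whether each library stands for its own mouse is not stated, so p-values measure the spread between these libraries, which may be technical.

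Library totals ran from 42829294 to 44902511 counts in KO and from 44950191 to 49537098 in WT. Levels are given as CPM, the counts of a gene scaled to library size in the usual per-million unit, with TMM factors, and 1 count was worth 0.0198 to 0.0242 CPM. Slc6a6 itself had 125, 132 and 133 CPM in the KO libraries, against 151, 145 and 145 CPM in the WT libraries, and did not pass the test (adjusted p = 0.196 in edgeR's quasi-likelihood test, unadjusted p = 0.0374). All KO libraries lay below all WT libraries, by 11.7% in the fit. The part of the gene that the KO allele alters is not known here, so these counts do not check the genotype label. The mouse gene Hoxa9 was at 97.3 to 108 CPM in KO and 129 to 140 CPM in WT (adjusted p = 0.0502). Whether reads of the NUP98-HOXA9 fusion are counted in its row is not known here. Kit, a progenitor marker, rose to 44.6 to 75.9 CPM in KO, against 9.90 to 25.6 CPM in WT (adjusted p = 0.0450 in the same test). Summed counts of the Y-linked genes Kdm5d, Uty, Ddx3y and Eif2s3y were 10274 to 11236 in each KO library and 0, 0 and 1 in the WT libraries. Xist, the transcript of the inactive X chromosome, was at 0.305 to 4.41 CPM in KO and 160 to 197 CPM in WT. The genotype label and the sex that these transcripts mark therefore cannot be told apart in any comparison below.

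A cell that swells has to lose solute to return to its volume. The volume-regulated anion channel, an assembly of LRRC8 proteins in the plasma membrane, opens on swelling and lets out chloride together with small organic osmolytes such as taurine, the amino acid that SLC6A6 carries in. LRRC8A is the obligatory subunit, and the partner subunits LRRC8B to LRRC8E set what the channel passes, with LRRC8D known for the passage of taurine and other uncharged osmolytes. In the opposite direction, cells in hypertonic surroundings accumulate osmolytes. The transcription factor NFAT5, also called TonEBP, then raises the genes for osmolyte carriers and enzymes, Slc6a6 among them. The kinase WNK1 senses volume and chloride and acts through the kinases SPAK (Stk39) and OSR1 (Oxsr1) on the cation-chloride cotransporters.

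Of the 10 genes, Lrrc8b was the 1 that passed the test. It was higher in KO, and no gene of the 10 was lower. Over all genes tested 3.56% passed the same test, 1.64% higher and 1.92% lower in KO, and 1 called gene of 10 is read against that background. The KO and WT libraries did not overlap for 2 of the 10 genes, Lrrc8b and Wnk1, both higher in KO, against 28.0% of all genes tested. The median log2 fold change (KO over WT) was 0.13 over the 10 genes and 0.01 over all genes tested.

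**Figure D1:**
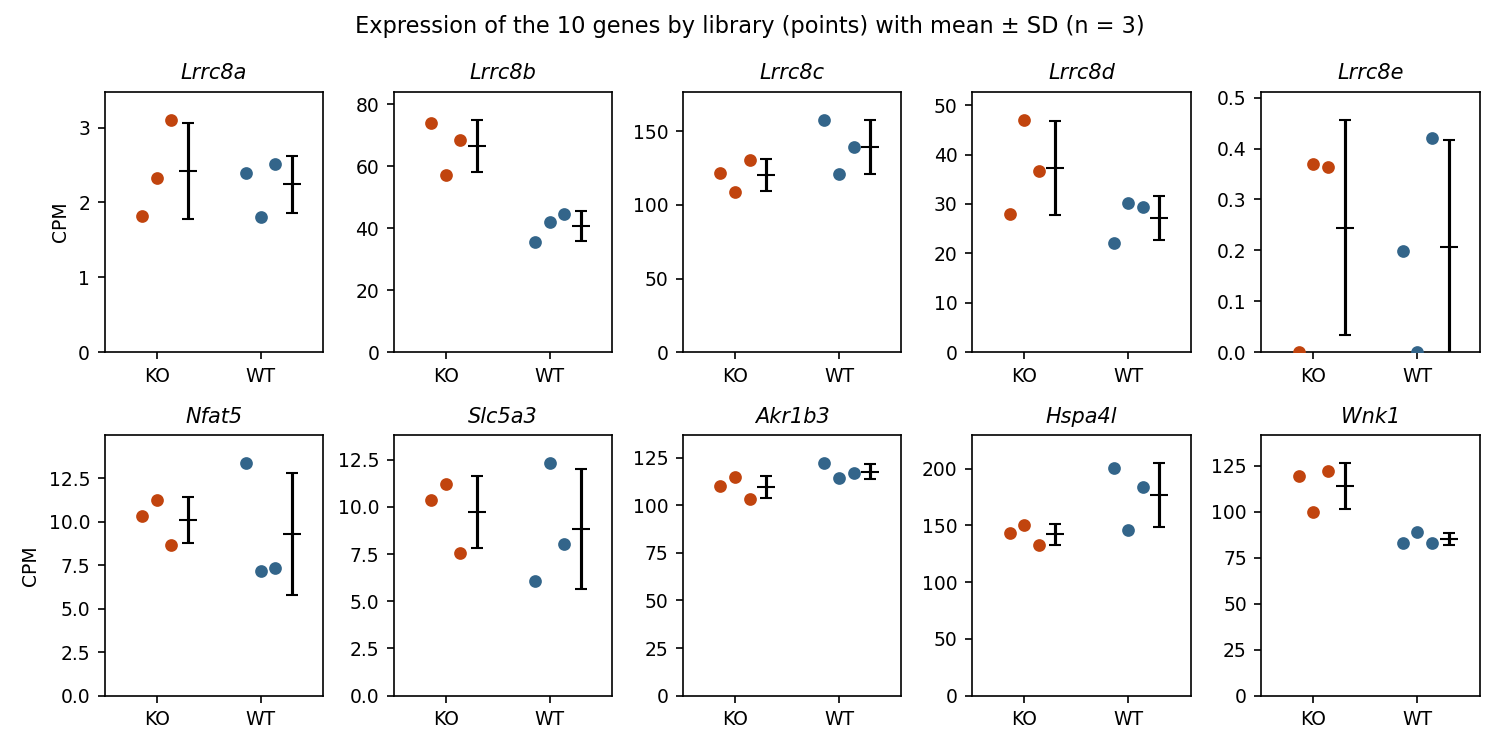
Expression of the 10 genes in CPM (vertical axes, each from 0), with a point for each library, KO left of WT, and the mean ± SD (n = 3) as a bar to the right of the points; the lower bar of Lrrc8e in WT runs below 0 and is not drawn in full. The KO points of Lrrc8b (57.3 to 73.8 CPM) and Wnk1 (99.6 to 122 CPM) all lie above the WT points, and the points of the other 8 genes overlap between the groups.

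Lrrc8b encodes a partner subunit of the channel. Its level was 73.8, 57.3 and 68.5 CPM in KO1, KO2 and KO3, against 35.5, 42.0 and 44.7 CPM in WT1, WT2 and WT3. The lowest KO library thus stood above the highest WT library. In the fit Lrrc8b rose 1.63-fold (log2 fold change 0.71 ± 0.14, SE, n = 3 against 3; 95% interval 0.39 to 1.03), with an adjusted p of 0.0430 in edgeR's quasi-likelihood test. That call was lost in 5 of the 6 fits that left out 1 library. The log2 fold change of Lrrc8b stayed between 0.60 and 0.80 when any 1 library was left out, but the adjusted p was 0.133 without KO1, 0.132 without KO3, 0.0902 without WT1, 0.105 without WT2 and 0.131 without WT3, and 0.0396 without KO2.

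Markers of some other blood cell types moved with the groups. Their calls are read against the 3.56% of all genes that passed the test. The summed level of 12 macrophage and dendritic cell markers was 161 to 197 CPM in KO and 47.5 to 68.1 CPM in WT. Of the 12 markers 6 passed the test, all 6 higher, and none was at 0 throughout either group. Flt3 went the other way without overlap, at 0.698 to 2.59 CPM in KO and 3.73 to 6.41 in WT. Adgre1 and Cd68 overlapped between the groups. For 7 B cell markers the sum was 55.6 to 154 CPM in KO and 5.45 to 39.7 CPM in WT, with 2 of 6 tested markers higher and Pax5 at 0 counts in all WT libraries. In the T and NK list of 12 markers, 5 of 11 tested were higher, and Cd4 and Ncr1 were at 0 in WT. The sums overlapped (742 to 1052 CPM in KO, 705 to 858 in WT). Most of each sum was Nkg7, at 701 to 1033 CPM in KO and 690 to 839 in WT. Cd3d, Cd3e, Cd3g, Trbc1, Trbc2, Cd8a and Cd4 were higher in every KO library than in any WT library. The other markers of this list overlapped between the groups. The 14 erythroid markers summed to 29740, 10387 and 33413 CPM in KO1, KO2 and KO3 and to 4877, 15099 and 8977 CPM in WT1, WT2 and WT3, with 0 of 14 past the test. Neutrophil markers summed to 24.0 to 226 CPM in KO and 128 to 874 CPM in WT with 0 of 12 past the test, and of 8 megakaryocyte markers 1 was higher and 1 lower. Of 10 stromal and endothelial markers 3 were tested and 0 passed, with Cdh5, Pdgfra and Dcn at 0 in all 6 libraries. Lrrc8b was lowest in KO2 among the KO libraries and in WT1 among the WT libraries, as the erythroid sum was. The highest libraries differed, KO1 and WT3 for Lrrc8b and KO3 and WT2 for the erythroid sum. A fit added after the data were seen took the mean log2 level of erythroid markers as covariate. In it the log2 fold change of Lrrc8b was 0.49 ± 0.14 (SE) with an adjusted p of 0.130. Over all genes 263 passed in that fit, against 543 without the covariate. The part of the macrophage, B cell and T cell signals in the Lrrc8b result was not tested. In sorted bulk samples, more cells of a type and more RNA per cell cannot be told apart.

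Among the subunit genes, Lrrc8c had the highest level per kilobase of exon in every library. LRRC8C is the partner subunit known from lymphocytes and endothelium. It measured 122, 109 and 131 CPM in KO1, KO2 and KO3, against 158, 121 and 140 CPM in WT1, WT2 and WT3. All of the KO libraries were below WT1 and WT3, but KO1 and KO3 passed WT2, so the groups overlapped. The log2 fold change of Lrrc8c was −0.21 ± 0.12 (SE; 95% interval −0.49 to 0.07) with an adjusted p of 0.360.

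Lrrc8d, the subunit linked to taurine passage, had 28.0, 47.0 and 36.6 CPM in KO1, KO2 and KO3, against 22.1, 30.3 and 29.3 CPM in WT1, WT2 and WT3. KO2 and KO3 stood above every WT library, and KO1 lay within the WT range. The fitted log2 fold change of Lrrc8d was 0.45 ± 0.22 (SE; 95% interval −0.06 to 0.96), with an adjusted p of 0.280. It was 0.23 without KO2, 0.30 without WT1 and 0.62 without KO1. A short antisense gene, Lrrc8dos, shares 218 exon bases with it, and its row held 4 counts in KO1 and none elsewhere.

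Lrrc8e was close to the detection limit. The KO libraries held 0 (KO1), 17 (KO2) and 15 counts (KO3) of it, and the WT libraries 10 (WT1), 0 (WT2) and 19 counts (WT3). A count of 0 allows up to 0.0675 CPM in KO1 and 0.0632 CPM in WT2, while the highest library, WT3, stood at 0.420 CPM. A difference between the groups was not detectable at this depth (95% interval of the log2 fold change −3.17 to 3.67).

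Lrrc8a, which encodes the subunit without which the channel does not form, had 81 to 128 counts in a KO library and 86 to 121 in a WT library. Its level was 1.82, 2.33 and 3.10 CPM in KO1, KO2 and KO3, against 2.40, 1.81 and 2.52 CPM in WT1, WT2 and WT3. The groups overlapped fully, and the log2 fold change was 0.11 ± 0.34 (SE; 95% interval −0.69 to 0.91; adjusted p = 0.896).

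The level of Lrrc8a has to be read with the gene models in view. In the mouse annotation GENCODE M21, the gene Gm28035 runs along the same strand through the exons of Lrrc8a into those of its neighbour Phyhd1, and it shares 2853 of the 4308 merged exon bases of Lrrc8a. All 2430 coding bases of Lrrc8a lie in that shared part. The count table has a row for Gm28035, and it held 0 counts in all 6 libraries. The sources used here give neither the annotation behind the deposited counts nor how reads on bases of more than 1 gene were treated. If such reads were dropped, the counts of Lrrc8a come from the 1364 exon bases that no other gene shares, and its level is then understated. This was not tested, and every level of Lrrc8a set beside another gene carries this limit. An antisense gene, 1700084E18Rik, shares a further 91 bases and had 17 to 37 counts in a library, and the library chemistry does not mark strand.

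**Figure D2:**
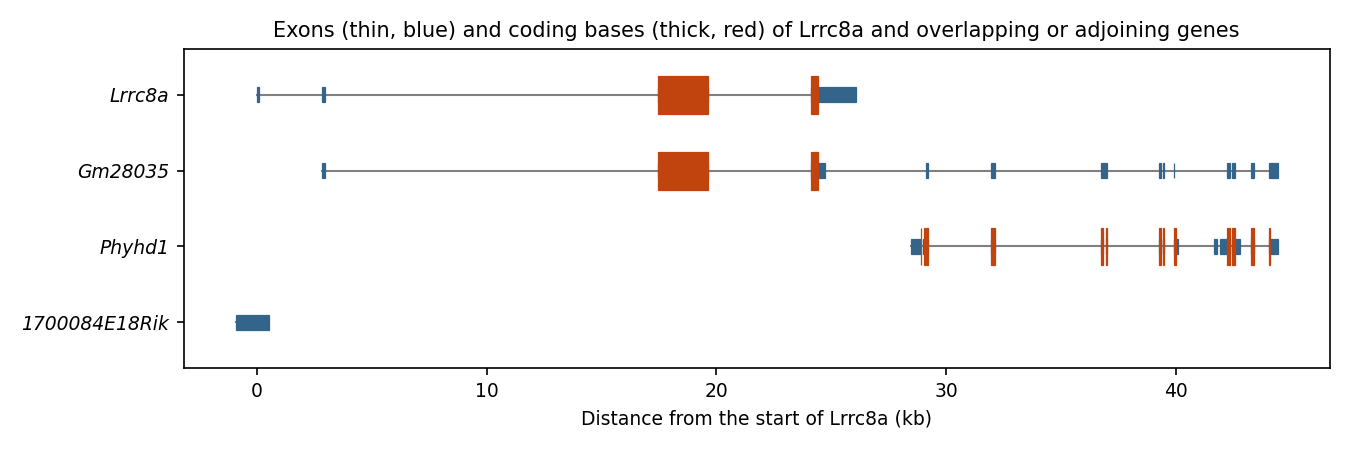
Gene models of Lrrc8a and the genes that overlap or adjoin it (GENCODE M21), drawn to scale along the distance from the start of Lrrc8a in kilobases, with exons as thin blue boxes and coding bases as thick red boxes. Gm28035 repeats all 2430 coding bases of Lrrc8a and continues into the exons of Phyhd1, while 1364 exon bases of Lrrc8a, all at the end of its last exon, are its own.

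To compare genes with each other, levels were divided by the length of the merged exons. On this scale the summed level of the 5 subunit genes was 29.5, 27.1 and 31.0 CPM per kilobase in KO1, KO2 and KO3, against 28.3, 24.9 and 27.9 in WT1, WT2 and WT3, and the groups overlapped. The make-up of that sum differed more than its size. Lrrc8c made up 53.8%, 52.5% and 55.1% of it in KO1, KO2 and KO3, against 72.9%, 63.6% and 65.4% in WT1, WT2 and WT3. Lrrc8b made up 37.2%, 31.4% and 32.9% in the KO libraries, against 18.7%, 25.1% and 23.8% in the WT libraries. For both genes the shares did not overlap between the groups, although Lrrc8c itself did not pass the test. Shares add to a whole, so a rise of Lrrc8b would by itself lower the other shares. How much of the lower Lrrc8c share comes from that was not tested. Lrrc8d held 7.54% to 13.8% in KO and 6.23% to 9.67% in WT. The ratio of Lrrc8b to Lrrc8c per kilobase was 0.628 ± 0.0541 in KO and 0.338 ± 0.0726 in WT (SD, n = 3 each), given as a description with no test because the values of both genes were known when it was chosen.

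Lrrc8a held 1.92% ± 0.450 of the sum in KO and 1.92% ± 0.208 in WT (SD, n = 3 each; exact two-sided permutation test, p = 1, where 0.1 is the smallest p that 3 against 3 allows). Counted per kilobase of unshared exon, a length chosen after the data were seen, its share was 5.80% ± 1.31 in KO and 5.81% ± 0.606 in WT. The libraries varied more within a group than between the groups on either length.

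**Figure D3:**
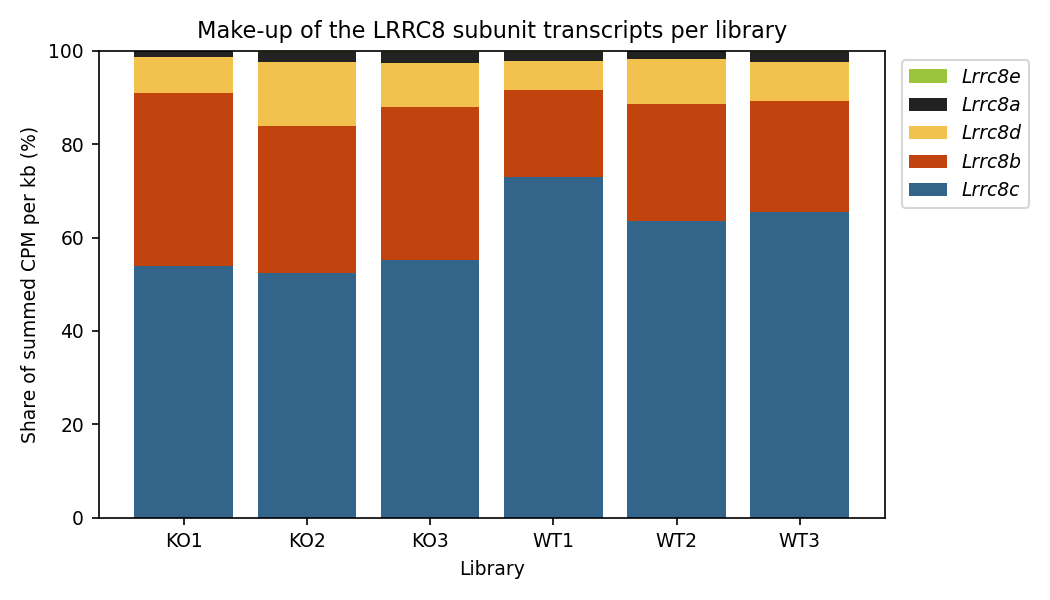
Share of each LRRC8 subunit gene in the summed level of the 5 genes (vertical axis, percent of CPM per kilobase of merged exons) for each library, KO libraries left of WT libraries. Lrrc8c takes 52.5% to 55.1% in KO and 63.6% to 72.9% in WT, and Lrrc8b 31.4% to 37.2% in KO and 18.7% to 25.1% in WT; the band of Lrrc8e, under 0.4%, is too thin to see.

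Lrrc8b and Lrrc8c lie next to each other on chromosome 5, on the same strand, and Wnk1 is the other gene of the list whose groups did not overlap. Their promoters are shown because Lrrc8b and Wnk1 were higher in every KO library while Lrrc8c was not. They are RefSeq sequences of the 250 bases before the annotated start, build GRCm38.p6. The windows are chr5:105415525-105415774 on the plus strand for Lrrc8b, chr5:105519221-105519470 on the plus strand for Lrrc8c and chr6:120038656-120038905 on the minus strand for Wnk1, each written from 5′ to 3′ along its gene. Capitals mark every match, on either strand, to the AP-1 site TGANTCA, the CCAAT box CCAAT and the GC box GGGCGG.
Lrrc8b: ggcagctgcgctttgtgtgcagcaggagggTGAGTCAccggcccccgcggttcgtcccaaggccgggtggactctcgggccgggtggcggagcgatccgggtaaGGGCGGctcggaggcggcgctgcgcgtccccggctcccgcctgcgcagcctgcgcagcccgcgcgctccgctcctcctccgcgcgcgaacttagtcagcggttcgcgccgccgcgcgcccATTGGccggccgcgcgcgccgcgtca
Lrrc8c: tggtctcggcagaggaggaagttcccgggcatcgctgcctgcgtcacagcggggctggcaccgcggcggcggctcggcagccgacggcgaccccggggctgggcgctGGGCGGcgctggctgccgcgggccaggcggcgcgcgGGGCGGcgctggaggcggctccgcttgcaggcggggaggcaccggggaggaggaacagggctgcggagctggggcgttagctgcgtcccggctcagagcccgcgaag
Wnk1: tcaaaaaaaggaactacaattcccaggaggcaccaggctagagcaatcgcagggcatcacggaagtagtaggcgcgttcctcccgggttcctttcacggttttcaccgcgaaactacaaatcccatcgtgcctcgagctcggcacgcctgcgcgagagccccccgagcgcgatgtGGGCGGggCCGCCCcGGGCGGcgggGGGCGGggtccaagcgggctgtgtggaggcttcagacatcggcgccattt

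All 3 promoters are rich in G and C, at 77.2% for Lrrc8b, 78.4% for Lrrc8c and 64.0% for Wnk1, against a median of 52.4% over 32851 promoters of the RefSeq table. The Lrrc8b promoter holds 1 AP-1 match, 1 CCAAT match and 1 GC box, the Lrrc8c promoter 2 GC boxes and neither of the others, and the Wnk1 promoter 4 GC boxes and neither of the others. Lrrc8d lies on the same strand of chromosome 5 and its promoters are not printed. Its first promoter holds 1 CCAAT match and 1 GC box, its second 2 GC boxes, and neither an AP-1 match. The letters TGACGTCA and CACGTG were searched too, with no match in the promoters printed here. Over all promoters of the same length, 6.75% hold the AP-1 letters, 33.8% the CCAAT box and 32.7% the GC box. The core of the tonicity element that NFAT5 binds, searched as TGGAAA on both strands, is in 18.6% of all promoters. It was not found in any of the 10 promoter windows of the 9 genes with an entry, that of the known NFAT5 target Slc5a3 included, and these windows do not reach distant enhancers. Akr1b3 had no entry.

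The osmolyte side of the list was represented by 4 genes, and none of them passed the test. Nfat5 had 10.3, 11.3 and 8.68 CPM in KO1, KO2 and KO3, against 13.4, 7.16 and 7.36 CPM in WT1, WT2 and WT3. WT1 was higher than all other libraries, and WT2 and WT3 were lower than all KO libraries. The log2 fold change of Nfat5 was 0.12 ± 0.29 (SE; 95% interval −0.57 to 0.81; adjusted p = 0.860), and 0.61 with the erythroid covariate (adjusted p = 0.339).

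Slc5a3 encodes SMIT1, the carrier that brings myo-inositol into the cell, and is a known NFAT5 target. It measured 10.4, 11.2 and 7.56 CPM in KO1, KO2 and KO3, against 6.08, 12.3 and 8.05 CPM in WT1, WT2 and WT3. WT1 and WT2 were the lowest and the highest of all 6 libraries, so the KO values lay inside the WT range (log2 fold change 0.14 ± 0.31, SE; 95% interval −0.58 to 0.87; adjusted p = 0.837). Slc5a3 shares 159 exon bases, none of them coding, with Mrps6, a mitochondrial ribosomal protein gene, and with Gm49711. Mrps6 averaged 35.3 ± 2.75 CPM in KO and 44.1 ± 5.80 in WT (SD, n = 3 each; adjusted p = 0.217), with the opposite sign to Slc5a3.

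Akr1b3 encodes aldose reductase, which makes the osmolyte sorbitol from glucose. Its level in KO1, KO2 and KO3 was 110, 115 and 103 CPM, against 122, 114 and 117 CPM in WT1, WT2 and WT3. KO2 lay between WT2 and WT3 and the other KO libraries below all WT libraries, and the 95% interval of the log2 fold change was −0.29 to 0.08 (adjusted p = 0.494). Reads of the related genes Akr1b7, Akr1b8 and Akr1b10 could be shared with it. Of these Akr1b10 averaged 38.1 CPM in KO and 34.2 in WT, Akr1b8 0.220 CPM in KO and 0.971 in WT, and Akr1b7 had at most 10 counts in a library.

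Hspa4l, a chaperone of the HSP110 family first described as an osmotic stress protein, had 143, 151 and 132 CPM in KO1, KO2 and KO3, against 200.5 CPM in WT1, 146 in WT2 and 184 in WT3. WT1 and WT3 stood above all KO libraries, and WT2 lay among them. The log2 fold change of Hspa4l was −0.32 ± 0.13 (SE; 95% interval −0.61 to −0.02), with an unadjusted p of 0.0415 and an adjusted p of 0.207 in edgeR's quasi-likelihood test. With the erythroid covariate the log2 fold change of Hspa4l was −0.10. At an unadjusted p below 0.05 stood 3 of the 10 genes (Lrrc8b, Wnk1 and Hspa4l) and 22.0% of all genes tested.

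Wnk1, the volume-sensing kinase, had 120, 99.6 and 122 CPM in KO1, KO2 and KO3, against 83.3, 88.8 and 82.9 CPM in WT1, WT2 and WT3. Every KO library was above every WT library, with KO2 closest to them. The fitted ratio of Wnk1 was 1.34 (log2 fold change 0.42 ± 0.10, SE; 95% interval 0.18 to 0.66), but its adjusted p of 0.0711 missed the threshold of 0.05. Without KO2 the adjusted p was 0.0412, and DESeq2's Wald test gave 0.00774. Without any other single library it was between 0.130 and 0.247. With the erythroid covariate the log2 fold change of Wnk1 was 0.27 and the adjusted p 0.224.

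**Figure D4:**
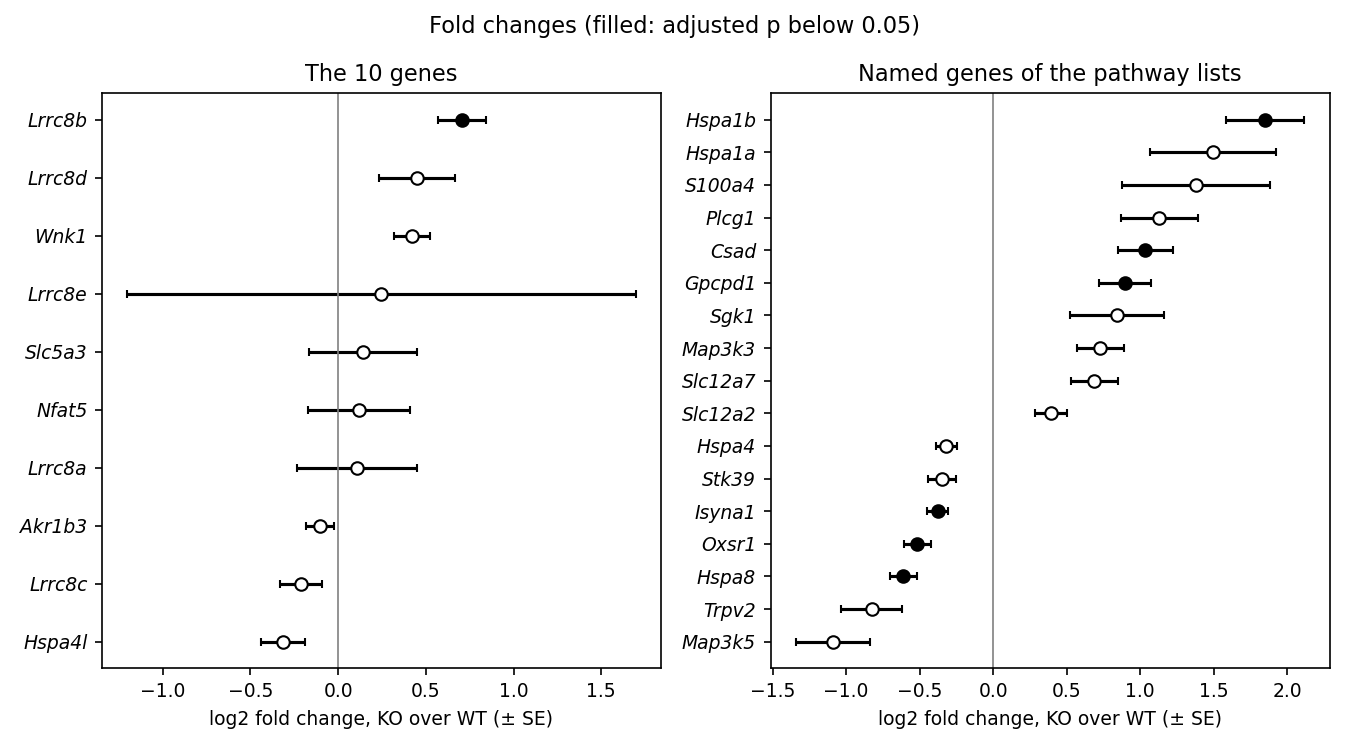
Log2 fold change, KO over WT, with its standard error as a horizontal bar (n = 3 against 3), for the 10 genes (left) and for the named genes of the pathway lists (right); filled points have an adjusted p below 0.05. Lrrc8b at 0.71 is the filled point on the left, and Hspa1b at 1.85 is the highest on the right.

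Ordered by level per kilobase of merged exons, Lrrc8c came first in both groups. In KO it averaged 15.7 CPM per kilobase, followed by Akr1b3 (13.1), Hspa4l (12.1), Lrrc8b (9.89), Wnk1 (4.99), Lrrc8d (2.96), Slc5a3 (0.891), Lrrc8a (0.561), Nfat5 (0.549) and Lrrc8e (0.0592). In WT the order was Lrrc8c (18.2), Hspa4l (15), Akr1b3 (14), Lrrc8b (6.05), Wnk1 (3.72), Lrrc8d (2.17), Slc5a3 (0.807), Lrrc8a (0.521), Nfat5 (0.506) and Lrrc8e (0.0498). Neighbours whose libraries overlapped were Akr1b3 with Hspa4l, Slc5a3 with Lrrc8a and Lrrc8a with Nfat5 in both groups, and in WT also Lrrc8c with Hspa4l. The libraries of the other neighbours did not overlap. The place of Lrrc8a carries the limit given above. The order also depends on the length used. Merged exons and longest transcript were 7654 and 6976 bases for Lrrc8c, and 8384 and 5024 for Akr1b3. For Wnk1 they were 22825 and 11330 bases, and for Lrrc8b 6726 on both measures. An order by longest transcript was not made, and these genes could change places in it.

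The genes whose pattern over the 6 libraries was nearest to that of Lrrc8a, among 8849 genes with a mean of at least 10 CPM, were C87436, Fam122b and Elf2. Likeness was measured as the root mean square difference of log2(CPM + 0.1), centred on each gene's mean, and was 0.0746, 0.0915 and 0.0986 for these 3 genes, where Lrrc8a itself varied by 0.259 around its mean. For Nfat5 they were Ahr, Fndc3a and Qsox1, at 0.0874, 0.0968 and 0.108, where Nfat5 varied by 0.322.

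Other genes of volume regulation were followed in 6 lists with 101 genes, of which 89 were tested. The lists were chosen with earlier results of these data known, so their shares below are a description and not a test. Together 3 were higher and 3 were lower in KO, 6.74% against the background of 3.56%, and the libraries of 36.0% did not overlap between the groups, against 28.0% of all genes tested. The genes that passed were Hspa1b, Csad and Gpcpd1, which rose, and Isyna1, Oxsr1 and Hspa8, which fell. The count of calls in each list below is read against the same 3.56% of all genes tested.

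In the WNK list, 1 of 10 tested genes fell and none rose. The gene that fell was Oxsr1, which encodes OSR1, the kinase that WNK1 phosphorylates. It had 61.2, 56.0 and 52.7 CPM in KO1, KO2 and KO3, against 84.2, 80.2 and 78.5 CPM in WT1, WT2 and WT3, so that the highest KO library lay well below the lowest WT library. Oxsr1 was 30.1% lower (log2 fold change −0.52 ± 0.09, SE; adjusted p = 0.0357). Stk39, which encodes the sister kinase SPAK, averaged 67.9 ± 1.05 CPM in KO and 86.6 ± 8.19 in WT (SD, n = 3 each), again without overlap, but its adjusted p was 0.0939. Wnk1 had the opposite sign to both of these kinases. Sgk1, a kinase gene known to respond to cell volume, averaged 37.8 ± 10.9 CPM in KO and 21.1 ± 8.49 in WT (adjusted p = 0.185), with all KO libraries above all WT libraries. Its log2 fold change of 0.84 was 0.58 without KO2 and 1.19 without WT1, and with the erythroid covariate it was 1.54 with an adjusted p of 0.0136. Wnk2 and Wnk3 had 0 to 2 counts in any library.

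Among 18 tested genes for ion and water transport, none passed edgeR's test and limma-voom called 0. An unadjusted p below 0.05 was found for 6 of the 18, against 22.0% of all genes tested. DESeq2 called 4 of the 18 (Aqp1, Trpv2, Slc12a7 and Slc12a2), against 13.1% of all genes. The 3 with the smallest p were Slc12a7, Trpv2 and Slc12a2. Slc12a2 encodes the sodium, potassium and chloride importer NKCC1, a target of the WNK cascade, and showed 62.5, 68.7 and 63.4 CPM in the KO libraries, against 52.5, 51.8 and 43.8 CPM in the WT libraries (adjusted p = 0.0919). Slc12a7, which encodes the potassium and chloride exporter KCC4, was at 23.6, 23.1 and 18.1 CPM in the KO libraries, against 13.1, 12.8 and 14.3 CPM in the WT libraries (adjusted p = 0.0655). Trpv2, a cation channel gene, ranged from 38.3 to 69.4 CPM in KO and from 88.4 to 101.5 in WT (adjusted p = 0.0766). These 3 genes were named for their small p, and none of them overlapped between the groups. The libraries of 38.9% of the 18 genes did not overlap, against 28.0% of all genes tested. The largest log2 fold change of the list, 1.93, belonged to Aqp1, the water channel of red cells, named after its value was seen. Aqp1 measured 330, 168 and 515 CPM in KO1, KO2 and KO3, against 32.2, 129 and 105 CPM in WT1, WT2 and WT3 (adjusted p = 0.114), and its lowest library in each group was also the lowest in the sum of erythroid markers.

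Of 22 tested genes for osmolyte uptake and synthesis, 2 rose and 1 fell. Csad, which encodes the enzyme that decarboxylates cysteine sulfinic acid on the way to taurine, had 24.7, 23.9 and 17.8 CPM in KO1, KO2 and KO3, against 11, 9.50 and 11.9 CPM in WT1, WT2 and WT3. It rose 2.05-fold (log2 fold change 1.03 ± 0.19, SE; adjusted p = 0.0367), with no overlap between the libraries. Gpcpd1, which encodes an enzyme that breaks down the osmolyte glycerophosphocholine, reached 100.2, 63.2 and 90.2 CPM in KO1, KO2 and KO3, against 42.1, 48.8 and 45.5 CPM in WT1, WT2 and WT3 (log2 fold change 0.90 ± 0.17, SE; adjusted p = 0.0440). KO2 was the nearest of the KO libraries to WT for Gpcpd1, as for Lrrc8b. Isyna1, which encodes the synthase that starts myo-inositol production from glucose phosphate, was 23.0% lower, with 195, 200 and 217 CPM in KO1, KO2 and KO3 against 265, 263 and 267 CPM in WT1, WT2 and WT3 (adjusted p = 0.0411). All KO libraries of this gene lay below the WT libraries, which were close to each other.

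In the list of other NFAT5-linked targets 1 of 11 tested genes rose, and in the list of chaperones related to Hspa4l 1 of 13 rose and 1 fell. The rise in both was that of Hspa1b, which encodes an inducible HSP70 and is on both lists. It had 23.1, 23.3 and 24.8 CPM in KO1, KO2 and KO3, against 8.98, 6.36 and 4.40 CPM in WT1, WT2 and WT3 (log2 fold change 1.85 ± 0.27, SE; adjusted p = 0.0222). Hspa1a is nearly identical to Hspa1b, so reads could be split between the pair. Its values were 2.88 ± 0.465 CPM in KO and 1.02 ± 0.458 in WT (SD, n = 3 each; adjusted p = 0.103). S100a4, also on the list of NFAT5-linked targets, averaged 4.74 ± 2.93 CPM in KO and 1.82 ± 0.356 in WT with an adjusted p of 0.171. KO2 stood highest at 7.86 CPM, KO3 and WT1 both had 2.06 CPM, and the log2 fold change of 1.38 was 0.80 without KO2.

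The constitutive HSP70 gene Hspa8 went the other way from Hspa1b. It measured 959, 1163 and 1175 CPM in KO1, KO2 and KO3, against 1628, 1696 and 1709 CPM in WT1, WT2 and WT3, 34.5% lower (log2 fold change −0.61 ± 0.09, SE; adjusted p = 0.0249). Hspa4, a close relative of Hspa4l, averaged 368 ± 15.9 CPM in KO and 459 ± 23.8 in WT (SD, n = 3 each) without overlap, with an adjusted p of 0.0631. Its log2 fold change of −0.32 was close to that of Hspa4l.

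Among 20 regulators and partners of NFAT5, none passed edgeR's test and limma-voom called 0. An unadjusted p below 0.05 was found for 5 of the 20, near the 22.0% of all genes tested, and DESeq2 called 5 of the 20 (Abl1, Fyn, Plcg1, Map3k3 and Map3k5), against 13.1% of all genes. The smallest p-values were those of the kinase genes Map3k3 and Map3k5 and of the phospholipase gene Plcg1. Map3k3, which encodes MEKK3, a kinase of the osmotic p38 cascade, averaged 26.3 ± 1.31 CPM in KO and 15.9 ± 2.59 in WT (adjusted p = 0.0586). Map3k5, which encodes the stress kinase ASK1, ranged from 18.8 to 32.3 CPM in KO and from 42.9 to 70.3 CPM in WT (adjusted p = 0.0632), and Plcg1 from 28.6 to 43.0 CPM in KO and from 11.3 to 20.5 CPM in WT (adjusted p = 0.0653). In each of these 3 genes, named for their small p, the KO and WT libraries did not overlap. Over the 20 genes 30% did not overlap, against 28.0% of all genes tested. Over these 20 genes the median log2 fold change came to 0.04.

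**Figure D5:**
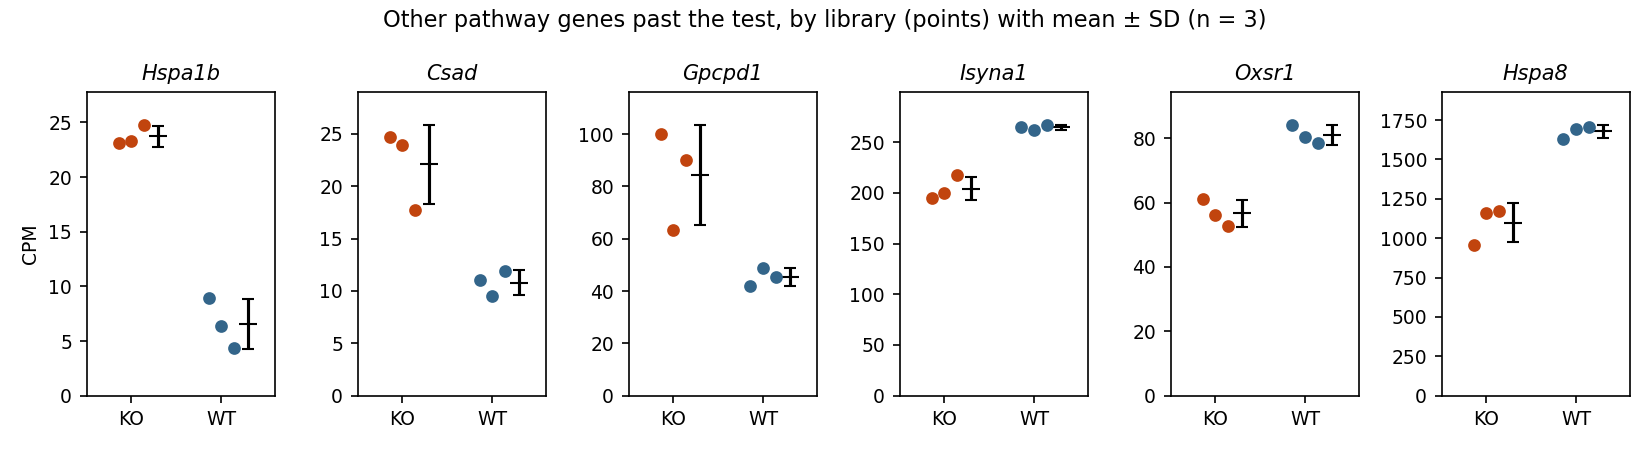
Levels in CPM (vertical axes, each from 0) of the 6 genes of the pathway lists with an adjusted p below 0.05, with a point for each library, KO left of WT, and the mean ± SD (n = 3) as a bar. The KO points of Hspa1b, Csad and Gpcpd1 lie above all WT points and those of Isyna1, Oxsr1 and Hspa8 below them.

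These 6 calls were also sensitive to single libraries. Oxsr1, Isyna1 and Csad missed the threshold in every fit without 1 library, at adjusted p-values of 0.0592 to 0.126, 0.0650 to 0.153 and 0.0558 to 0.123. Gpcpd1 passed without KO2 (0.0242), Hspa1b without KO2 (0.0386) and without WT1 (0.0257), and Hspa8 without KO1 (0.0490), KO2 (0.0381) and WT1 (0.0445). In their other fits without 1 library the adjusted p was 0.0987 to 0.165 for Gpcpd1, 0.0635 to 0.0756 for Hspa1b and 0.0610 to 0.115 for Hspa8. With the erythroid covariate Hspa1b passed (0.0448) and the other 5 genes did not, at 0.0623 for Csad, 0.0673 for Hspa8, 0.0853 for Isyna1, 0.107 for Oxsr1 and 0.130 for Gpcpd1, whose log2 fold change was then 0.57. The signs of the 6 genes were the same in all 15 alternatives tried.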

How the data were processed

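The deposited table holds read counts per gene as whole numbers, 1 column per library, and no sample column was left unused. Per the labels' protocols, cDNA was amplified from 1 ng of RNA with SMARTer chemistry for low input, Nextera XT libraries were made from 150 pg of it, and reads were single-end, 100 nt long. This chemistry carries no strand mark and no molecular identifiers, so the limit that a count of 0 allows covers counting error and nothing else. The tools behind the counts were featureCounts, Subread 2.0.1, STAR 2.7.9a and fastp 0.23.1, per the submitters' processing notes. Their settings, the build and the annotation are not stated there.

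Genes were filtered with filterByExpr (minimum count 10, minimum total 15), scaled by TMM and tested with edgeR 4.0.16 (R 4.3.3, quasi-likelihood F test, robust, KO over WT, no covariate), with Benjamini-Hochberg adjustment over 15232 genes and a threshold of 0.05. A standard error is the log2 fold change divided by the square root of F. Exon lengths and overlaps come from GENCODE M21, which holds 92.8% of the table's symbols. Promoters were matched by symbol for 9 of 10 genes. The fitting code was tested on simulated data. Alternatives were other scalings, filters and tests (DESeq2 1.42.0, limma-voom in limma 3.58.1), a replicate block, leaving out single libraries and, as choices made once the data had been seen, erythroid level as covariate and unshared exon length.

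The members and lists were chosen with earlier results of these data known. Named are all members, Slc6a6, overlapping genes, the pathway genes past the test, up to 3 genes per list of smallest p whose mean is 1 CPM or more, and 3 nearest patterns each for Lrrc8a and Nfat5. Hoxa9, Kit, Xist, Aqp1, Akr1b7, Akr1b8, Akr1b10, Abl1, Fyn, Wnk2, Wnk3 and the single markers were named after their values were seen. A further B cell marker was left out of the list and is not reported here.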

Additional observations from a re-analysis of the deposited data

How the results depend on the processing

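Lrrc8b kept its sign in all 15 alternatives and its call in 8 of them, and the other 9 genes moved between passing and not passing only for Wnk1, which passed in 2. With DESeq2's Wald test 1995 genes, 2 of the 10 genes and 21 pathway genes passed. With the erythroid covariate, chosen after the data were seen, the numbers were 263, 0 and 3, the last being Hspa1b, Trpv2 and Sgk1. Without 1 library, 42 to 618 genes, 0 to 2 of the 10 genes and 0 to 4 pathway genes passed. Whether equal replicate numbers pair the libraries is not stated in the labels. Same-numbered KO and WT libraries deviated from their group means with correlations of 0.06, −0.23 and −0.12. Of 3 KO libraries 1 was nearest to the WT library of its own number. With 3 libraries in a group these values cannot settle whether the numbers mark pairs. With the replicate number as a block, 28 genes, 0 of the 10 genes and 0 pathway genes passed.

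Signs changed only for genes far from the threshold and only on leaving out 1 library. The log2 fold change then ranged from −0.12 to 0.28 for Lrrc8a, from −0.33 to 1.26 for Lrrc8e, from −0.040 to 0.45 for Nfat5 and from −0.087 to 0.46 for Slc5a3, and the difference in the share of Lrrc8a (KO minus WT) from −0.21 to 0.24 percentage points. The cause was not tested. Counts of Lrrc8a and Lrrc8e limit what can be said of the channel's obligatory and rarest subunits.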
